A study of Mus musculus with 12 samples.

Results

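Huntingtin, the product of Htt, is a large scaffold protein that links cargo to the dynein and kinesin motors and takes part in vesicle transport, autophagy and cilium formation. Its expansion mutation causes Huntington disease, and its loss is lethal in mouse embryos. The data described here are the steady-state transcript levels of mouse embryonic fibroblasts (MEFs) with Htt present or removed. They come from 6 of the 12 libraries of the series, chosen by their labels: 3 total RNA libraries of HTT-deleted cells and 3 of control cells.

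Every culture was a primary MEF preparation from E13.5 embryos with both Htt alleles floxed (HTTfl/fl), so the control cells carry the floxed alleles too. HTT-deleted cells received a lentivirus encoding Cre recombinase and GFP. Control cells received a lentivirus encoding an H2B-eGFP fusion, so the arms differ in their vectors as well as in Htt. Cells were harvested 7 days after transduction, and per the labels a replicate is a different primary preparation or a separate passage, so that the p-values below measure the spread between these. The labels name neither the exons that Cre removes nor any selection of transduced cells, and primary MEFs are a mixed population. The same-numbered control and HTT-deleted libraries were treated as a pair, by the replicate numbers of the labels. The question is which transcripts differ in amount once Htt is lost. The 6 other libraries, of ribosome-associated RNA from the same suspensions, appear only beside single results.

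The 6 libraries held 17745092 to 29863183 gene counts and detected 20316 to 22035 genes, and 14759 of the 55487 listed genes passed the filter on low counts and were tested. Fibroblast identity genes were abundant in each of them, with Col1a1, a chain of type I collagen, at 7747 to 13130 CPM (counts scaled to library size, with TMM factors that correct for library composition). Markers of T cells, B cells, granulocytes, mast cells and other leukocytes were near 0: none of the 18 passed the filter on low counts, and the highest count of any of them in a library was 21. Macrophage markers were clearly present, with Lyz2, the macrophage lysozyme, at 404 to 4684 CPM.

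One library stood apart. In HTT-deleted replicate 1, genes with a long total exon length were under-represented and those with a short one over-represented relative to its control partner. Across 13102 protein-coding genes the median difference of pair 1 on the log2 scale was 0.91 in the shortest 10% of genes and -0.53 in the longest 10%. In pair 2 these medians were -0.03 and 0.03, and in pair 3 they were -0.07 and 0.06. Some genes were almost lost from that library. Med12, a subunit of the Mediator complex, was at 66.9, 60.1 and 56.4 CPM in the controls and 66.5 and 60.9 CPM in HTT-deleted replicates 2 and 3, but at 3.02 CPM in HTT-deleted replicate 1. In the ribosome-associated RNA of that same culture Med12 stood at 24.5 CPM, against 20.1 CPM in the paired control. Of the genes with at least 10 counts in each of the 5 other total libraries, 32 were listed at 0 in HTT-deleted replicate 1, and for each other library the corresponding number was 0. Med12 was chosen after its values were seen. The cause of this length dependence was not tested, and the values below are given by pair or by library wherever they are described in detail, so that pair 1 can be read separately.

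**Figure D1:**
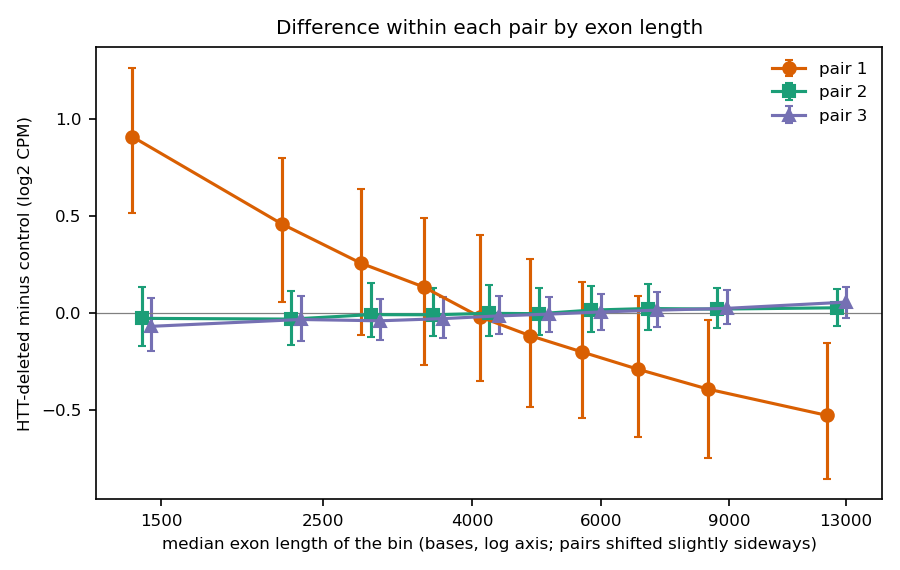
Median difference between HTT-deleted and control total RNA (log2 CPM, y axis) in 10 bins of protein-coding genes ordered by exon length (x axis, bases, log axis), for each of the 3 pairs; bars run from the lower to the upper quartile. Pair 1 runs from 0.91 in the shortest bin to -0.53 in the longest, while pairs 2 and 3 stay between -0.07 and 0.06.

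With all 3 pairs, no gene passed the threshold. edgeR's quasi-likelihood test with the pair as a block called 0 of 14759 genes at a Benjamini-Hochberg adjusted p under 0.05 (0.0%), and 367 genes had an unadjusted p under 0.05. On the same 6 libraries DESeq2 called 14 genes, edgeR's likelihood ratio test 27, limma voom 0 and limma voom with a weight for each library 163. The last method gives variable libraries a low weight, and it weighted the 2 libraries of pair 1 at 0.150 and 0.162 and the 4 others at 2.28 to 2.80. With the pair as a block, the 2 libraries of a pair lie about equally far from the fit. These weights therefore compare pairs and cannot single out a library within a pair. Without pair 1, the quasi-likelihood test called 100 of 14938 genes, 83 higher (0.556% of genes tested) and 17 lower (0.114%). Without pair 2 it called 4 genes and without pair 3 it called 3. The spread of the pair differences over all genes was 0.85 in pair 1 (SD, log2), 0.38 in pair 2 and 0.30 in pair 3.

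Htt itself was lower in every HTT-deleted library. The gene (ENSMUSG00000029104) lies on the plus strand at chr5:34761740-34912534 (GRCm38). Its level was 59.9, 46.5 and 64.8 CPM in control replicates 1 to 3, and 16.6, 10.8 and 10.8 CPM in the HTT-deleted replicates. The groups did not overlap, and the transcript remained at 27.8%, 23.3% and 16.7% of the paired control. The log2 fold change was -2.18 (SE 0.20), with an unadjusted p of 8.1e-05 and an adjusted p of 0.900 by the quasi-likelihood test with all 3 pairs. Leaving out any one pair brought Htt past the threshold, with adjusted p of 6.19e-06 without pair 1, 2.9e-05 without pair 2 and 0.034 without pair 3. Counts cover the whole gene, so transcripts that lack the floxed exons still contribute. In ribosome-associated RNA the same pairs differed by -0.81, -1.97 and -2.98. Whether the remaining Htt reads came from cells that kept the gene or from shortened transcripts cannot be told apart in these bulk counts.

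**Figure D2:**
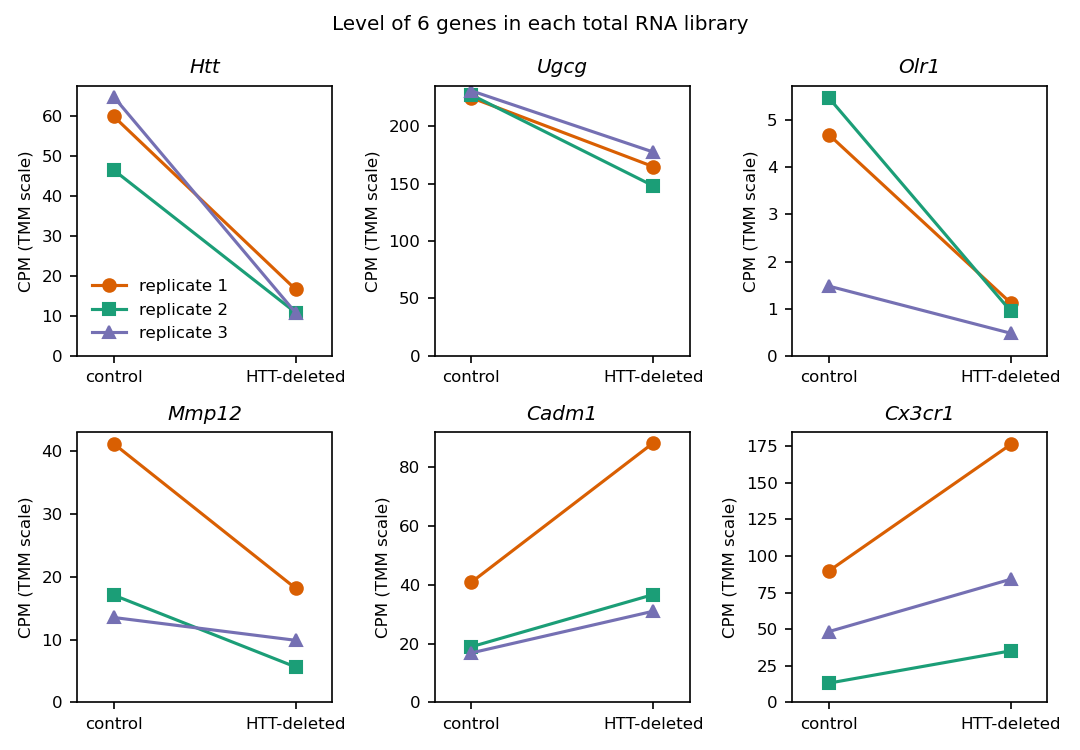
Level (CPM on the TMM scale, y axes from 0) of Htt, Ugcg, Olr1, Mmp12, Cadm1 and Cx3cr1 in each total RNA library, with lines joining the control and HTT-deleted library of a replicate. Htt stands at 46.5 to 64.8 CPM in controls and 10.8 to 16.6 CPM in HTT-deleted cells, Ugcg is lower in all 3 HTT-deleted libraries than in any control, and Cx3cr1 is higher in each pair although its 3 control levels are far apart.

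The gene next to Htt was lower as well. Msantd1, which begins within the last part of Htt on the same strand (an overlap of 4523 bases), was at 1.60, 1.46 and 1.81 CPM in controls and 0.71, 0.17 and 0.16 CPM in HTT-deleted cells. The groups did not overlap, and its log2 fold change was -2.29 (SE 0.55, unadjusted p 0.0077). Reads from the shared stretch cannot be assigned to one of the genes, and the sources used here do not say how they were counted.

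Transcripts for histone H2B gave the widest differences among the named genes. Hist1h2bf and Hist1h2bm are replication-dependent genes for this core histone. Hist1h2bf had 319, 378 and 28 counts in controls and 0, 1 and 2 in HTT-deleted libraries. Summed over the groups and scaled by depth, that is 0.589% of the control level (95% exact interval 0.121 to 1.73%, counting error only). Hist1h2bm had 149, 180 and 19 counts in controls and 0, 0 and 2 in HTT-deleted libraries, or 0.818% (0.0987 to 2.98%). The control replicates themselves were far apart, with replicate 3 lowest for both genes, so the summed ratios rest mainly on controls 1 and 2. In pair 3 the gap was narrower. There Hist1h2bf was at 1.04 CPM in the control and 0.11 CPM in the HTT-deleted library, and Hist1h2bm at 0.70 and 0.11 CPM. The abundant H2B gene Hist1h2bc did not share the pattern: it was at 42.2, 49.9 and 48.1 CPM in controls and 90.8, 47.1 and 47.6 CPM in HTT-deleted cells. The control vector encodes an H2B fusion and the Cre vector does not, so a difference in these genes cannot be told apart from vector transcripts counted under them.

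Among the genes that were lower in all 3 pairs (1660 of 14759, 11.2%), 326 had every HTT-deleted library below every control (2.21%). Ugcg, the glucosylceramide synthase that makes the first glycosphingolipid, had close levels within each arm: 225, 227 and 231 CPM in controls and 165, 148 and 177 CPM in HTT-deleted cells. Its groups did not overlap, and its pair differences were -0.45, -0.62 and -0.38. The log2 fold change was -0.48 (SE 0.15, unadjusted p 0.0203), and the quasi-likelihood test gave it an adjusted p of 0.0112 without pair 1. The ribosome-associated pairs differed by -0.35, -0.55 and -0.17.

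Olr1, a scavenger receptor for oxidised LDL, stood at 4.70, 5.48 and 1.48 CPM in controls and 1.12, 0.95 and 0.48 CPM in HTT-deleted cells. All 3 HTT-deleted libraries were below all controls. The log2 fold change was -2.12 (SE 0.31, unadjusted p 7.1e-04), and the adjusted p without pair 1 was 0.0145. Mmp12, macrophage elastase, was lower in each pair, at 41.2, 17.1 and 13.5 CPM in controls and 18.2, 5.64 and 9.89 CPM in HTT-deleted cells, but its groups overlapped. Its log2 fold change was -1.07 (SE 0.26, unadjusted p 0.0079). The quasi-likelihood test left its adjusted p at 0.327 without pair 1, while limma voom with library weights gave 0.0332. In ribosome-associated RNA its pairs differed by -1.05, -1.72 and -0.59.

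The other genes named on the lower side were less abundant or less even between pairs. Clca3a1, a member of the chloride channel accessory family, differed by -1.36, -1.10 and -0.13 in pairs 1 to 3. Kng2, a kininogen gene, differed by -1.29, -1.53 and -0.41. Esm1, the proteoglycan endocan, was at 0.50 to 2.52 CPM in controls and 0.06 to 1.07 CPM in HTT-deleted cells, and differed by -1.12, -2.01 and -1.17. Hhip, a Hedgehog-binding inhibitor of that pathway, was at 2.60, 5.27 and 2.41 CPM in controls and 1.54, 3.41 and 1.18 CPM in HTT-deleted cells. None of these 4 genes passed the threshold without pair 1 either.

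On the higher side, transcripts of macrophages were prominent among the named genes. Of the genes tested, 1674 (11.3%) were higher in all 3 pairs, and 262 (1.78%) had every HTT-deleted library above every control. Cd5l, a scavenger protein that macrophages secrete, was at 1.00, 0.05 and 1.11 CPM in controls and 7.63, 0.56 and 4.86 CPM in HTT-deleted cells. Each pair was higher after deletion, although HTT-deleted replicate 2 stayed below controls 1 and 3. Its log2 fold change was 2.59 (SE 0.33, unadjusted p 3.3e-04), with an adjusted p of 0.0173 without pair 1. In control replicate 2 that level is a single count.

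Cx3cr1, the fractalkine receptor of monocytes and macrophages, was at 89.7, 13.2 and 48.3 CPM in controls and 176, 35.2 and 84.1 CPM in HTT-deleted cells. The groups overlapped because the control cultures differed widely among themselves, yet each pair was higher, by 0.97, 1.41 and 0.80. C1qb, a chain of complement C1q, was at 131, 30.9 and 66.3 CPM in controls and 364, 75.2 and 110 CPM in HTT-deleted cells. Its partner chain C1qc followed with pair differences of 1.28, 1.40 and 0.66. Ms4a6c and Ms4a6d, related membrane-spanning proteins of myeloid cells, differed by 0.87, 1.28 and 0.98 and by 0.84, 0.94 and 0.78. Pou2f2, the lymphoid and myeloid transcription factor Oct-2, differed by 1.46, 1.67 and 0.89. Arl11, an ARF-like GTPase, was at 11.7, 2.31 and 5.18 CPM in controls and 22.8, 6.71 and 10.3 CPM in HTT-deleted cells, higher in each pair. Blnk, an adaptor of immune receptor signalling, differed by 1.42, 1.36 and 1.07.

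Cadm1, an immunoglobulin-like adhesion molecule, was the exception among the 10 genes named on that side in not being known mainly from blood cells. It was at 40.9, 18.9 and 16.9 CPM in controls and 88.3, 36.7 and 31.1 CPM in HTT-deleted cells. The pair differences of 1.11, 0.95 and 0.88 were close to each other, and the log2 fold change was 0.98 (SE 0.15, unadjusted p 8.0e-04). The adjusted p without pair 1 was 0.00154. In ribosome-associated RNA the pairs differed by 0.74, 0.92 and 0.49.

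The macrophage list as a whole had 19 tested members of 20, and all 19 had log2 fold changes above 0, with 17 higher in all 3 pairs and none called in the fit of 3 pairs. Over all genes tested, 7478 of 14759 were above 0 and 11.3% were higher in all 3 pairs. The median of the list was 0.95, 1.19 and 0.53 in pairs 1 to 3, where the medians of all genes were -0.01, 0.00 and -0.00. The summed level of the markers was 3906, 931 and 2131 CPM in controls and 8649, 2159 and 3256 CPM in HTT-deleted cells. The controls alone thus ran from 931 to 3906 CPM. No marker had groups that did not overlap, but only 1.78% of all genes tested had every HTT-deleted library above every control. At that share, the absence of such a marker is not a result about the list. Without the pairing, the median of the list depended on single libraries: it was 0.81 with all 6, 0.16 without HTT-deleted replicate 1 and 1.56 without control replicate 1. In bulk RNA, more macrophages and more RNA per macrophage cannot be told apart. The part of these cells in the single genes above was not tested.

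In pair 1 the size of the difference varied with exon length, with a Spearman correlation of -0.747 over the 19 markers, which share their libraries. It was -0.0175 in pair 2 and -0.251 in pair 3. The markers named next were chosen after their values were seen. Tyrobp and Fcer1g, short signalling adaptors, differed by 1.85 and 1.73 there, and C1qa by 1.80. Mpeg1 and Csf1r, with longer transcripts, differed by -0.08 and -0.07 in that pair. In pair 2 the same 2 genes differed by 1.25 and 1.16, and in pair 3 by 0.61 and 0.44. The median of the 9 shortest markers was 1.64 in pair 1 and that of the 9 longest was 0.33. In pair 2 these medians were 1.09 and 1.25, and in pair 3 they were 0.58 and 0.49. Macrophage markers in the ribosome-associated RNA of the same cultures had median pair differences of 0.74, 1.26 and 0.48. The part of transcript length in the pair 1 values of single genes was not tested.

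**Figure D3:**
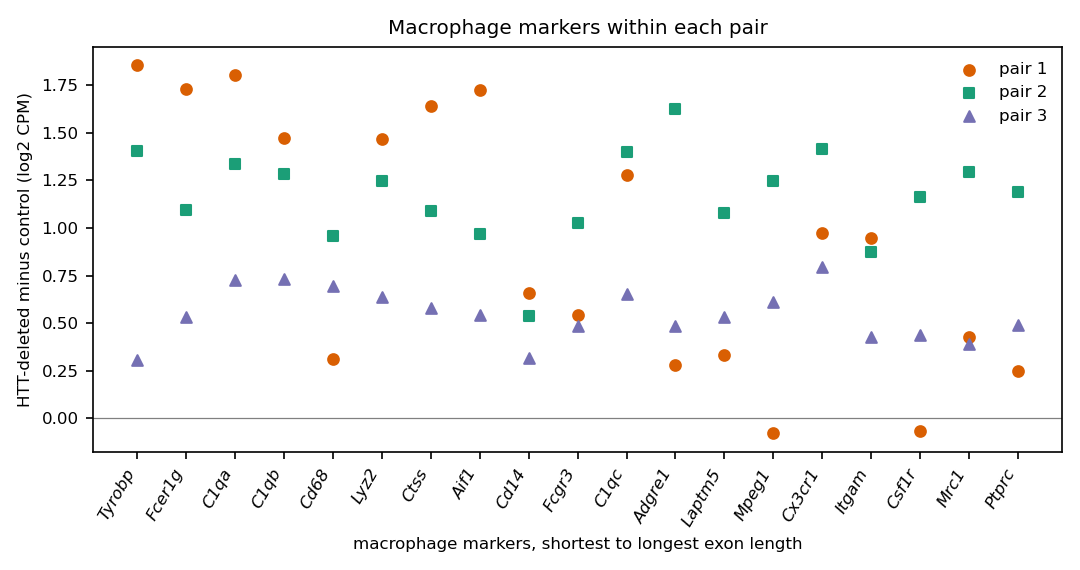
Difference between HTT-deleted and control total RNA (log2 CPM, y axis) for the 19 tested macrophage markers, ordered from the shortest to the longest exon length (x axis), with one symbol per pair. In pair 2 and pair 3 all 19 markers lie above 0, while in pair 1 the shortest markers reach 1.85 and Mpeg1 and Csf1r lie at -0.08 and -0.07.

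The 100 genes called in pairs 2 and 3 alone rest on 2 pairs of libraries. In that fit the 83 higher genes had a median of 0.76 on the log2 scale, and their median in pair 1, which took no part in the call, was 0.33, with 57 of 83 above 0. Over all genes tested, 7319 of 14759 were above 0 in pair 1. The genes named from these 100 were chosen after their values were seen. They include Cd68, a lysosomal glycoprotein of macrophages (adjusted p 9.85e-04 by the quasi-likelihood test without pair 1), with 39.3 and 58.7 CPM in controls 2 and 3 and 76.4 and 95.2 CPM in their HTT-deleted partners. The macrophage list contributed Cd14, Cd68, Cx3cr1, Fcer1g and Fcgr3. Spi1, which encodes the myeloid transcription factor PU.1, had pair differences of 1.58, 0.98 and 0.62. Vav1, a guanine nucleotide exchange factor of blood cells, had 0.63, 1.11 and 0.53. Tlr8, an endosomal RNA sensor, differed by 1.26 and 1.05 in pairs 2 and 3 but by -3.68 in pair 1, and in the ribosome-associated RNA of pair 1 by 1.35.

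Promoters of the higher genes are shown because the set includes Spi1, whose product binds the motif GAGGAAGT. Their common direction in pairs 2 and 3 is how they were chosen. The search covered the 250 bases before each start, on both strands, in RefSeq sequences (GRCm38.p6), which matched 64 of the 83 higher genes, 12 of the 17 lower ones and 10724 of the genes tested by symbol. The motif was found in 10 of the 64 higher genes (15.6%), in 0 of the 12 lower genes and in 2.87% of all. The other letters searched were CCGGAAG, bound by other ETS factors (4 of 64, 0 of 12 and 15.1% of all), TGAGTCA, the AP-1 site (6 of 64, 1 of 12 and 4.19%), and ATGCAAAT, the octamer that Oct-2 binds (0 of 64, 0 of 12 and 1.51%). GAGGAAGT and CCGGAAG share the letters GGAAG, but no single GGAAG can belong to both. A match is a description of the letters and not evidence of binding. The 4 printed here lie at chr7:45238840-45238899 on the minus strand (Cd37), chr4:43454642-43454701 on the minus strand (Cd72), chr17:57279040-57279099 on the plus strand (Vav1) and chr1:87620252-87620311 on the plus strand (Inpp5d). They read 5′ to 3′ along the gene's strand, with the motif or its reverse complement ACTTCCTC in capitals.
Cd37: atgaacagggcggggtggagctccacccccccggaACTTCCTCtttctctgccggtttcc
Cd72: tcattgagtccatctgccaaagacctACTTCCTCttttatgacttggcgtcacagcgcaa
Vav1: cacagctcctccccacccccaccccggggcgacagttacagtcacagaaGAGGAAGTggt
Inpp5d: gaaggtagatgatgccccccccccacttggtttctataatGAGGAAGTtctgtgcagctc
The tetraspanin gene Cd37 had pair differences of 0.91, 1.45 and 1.26. The B cell and myeloid receptor gene Cd72 had 0.55, 0.77 and 0.45, and Inpp5d, which encodes the phosphatase SHIP1, had -0.01, 1.22 and 0.56. These 4 were chosen after their values were seen. Of all 10 higher genes with the motif, 5 were above 0 in pair 1, among them Cd37, Cd72 and Vav1.

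The 17 lower genes of pairs 2 and 3 held Htt, Msantd1, both H2B genes, Olr1 and Ugcg. Their median was -0.50 in that fit and 0.34 in pair 1, with 7 of 17 below 0 there. Msln and Upk1b, markers of the mesothelium that lines body cavities, were among them. Msln was at 6.13 and 1.59 CPM in controls 2 and 3 and 2.07 and 0.32 CPM in their partners, but pair 1 went from 2.40 to 3.31 CPM. Upk1b was at 10.7 and 1.30 CPM in controls 2 and 3 and 3.69 and 0.59 CPM in their partners, against 2.56 and 4.14 CPM in pair 1. In the ribosome-associated RNA, Upk1b differed by -0.69, -1.33 and -1.52 and Msln by -0.12, -0.81 and -0.91, so pair 1 lay below 0 in that fraction. The 8 tested mesothelial and epithelial markers of 13 had medians of 0.15, -0.98 and -0.46, and their summed level was 13.7, 34.4 and 9.22 CPM in controls and 17.0, 14.8 and 7.86 CPM in HTT-deleted cells. Of these 8 markers, 2 were higher and 2 were lower in all 3 pairs. Krt19, a keratin, was on the higher side, by 1.46, 0.52 and 0.48. Timp1, an inhibitor of matrix metalloproteinases with a short transcript, differed by 1.11, -0.47 and -0.27, and in the ribosome-associated RNA by -0.72, -0.49 and 0.07. Errfi1, a feedback inhibitor of the EGF receptor, was lower in every pair, by -1.01, -0.38 and -0.38.

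**Figure D4:**
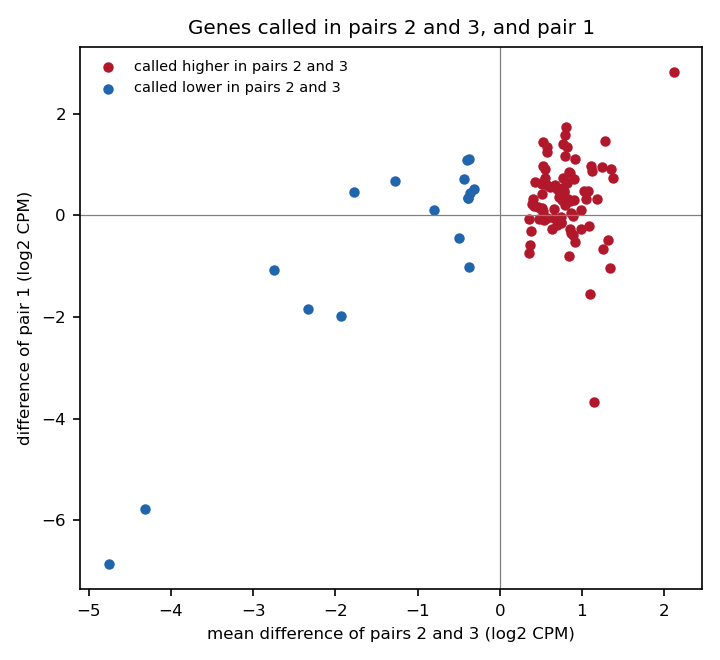
Pair 1 difference (log2 CPM, y axis) of the 100 genes called in pairs 2 and 3, against their mean difference in pairs 2 and 3 (log2 CPM, x axis), which chose them. Of the 83 genes called higher 57 lie above 0 in pair 1, and of the 17 called lower 7 lie below 0.

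Library weights in limma voom kept pair 1 at low weight instead of leaving it out. That fit called 148 genes higher (1.0%) and 15 lower (0.102%), and 73 of the 83 higher genes above and 8 of the 17 lower ones were among them. It called 16 of the 19 macrophage markers. The libraries with most of the weight in that fit are those used in the fit without pair 1. The overlap between these fits is therefore not an independent test of the genes called.

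The remaining lists are described by their medians in the 3 pairs. Genes of the translation and energy machinery, which have short transcripts, differed mainly in pair 1. The 82 genes of cytosolic ribosomal proteins had a median of 1.25 in pair 1, with 82 of 82 above 0, but -0.08 in pair 2 and -0.12 in pair 3. Rplp1, a protein of the ribosomal stalk, was at 790, 849 and 770 CPM in controls and 2196, 753 and 757 CPM in HTT-deleted cells, so only HTT-deleted replicate 1 lay apart. The 74 nuclear-encoded respiratory chain subunits had medians of 1.25, -0.09 and -0.10, and the 31 proteasome subunits 0.84, -0.06 and -0.08. In ribosome-associated RNA of pair 1 these 3 lists had medians of -0.18, -0.20 and -0.12.

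Some lists of long transcripts went the other way in pair 1, but not all. Neural and glial markers, with a median exon length of 5381 bases, had a pair 1 median of 0.16. REST-repressed neuronal genes (5406 bases) had 0.14. The 30 genes of collagens and fibrillar matrix had medians of -0.75, -0.00 and 0.08. Fn1, fibronectin, was at 11870, 11700 and 8979 CPM in controls and 4085, 9573 and 9696 CPM in HTT-deleted cells. The 26 genes of the primary cilium and Hedgehog signalling, a process to which huntingtin has been linked, had medians of -0.56, -0.01 and 0.07. Smo, the transducer of the Hedgehog signal, was at 146, 179 and 166 CPM in controls and 46.1, 174 and 176 CPM in HTT-deleted cells. Only HTT-deleted replicate 1 was low, and in pairs 2 and 3 Smo differed by -0.04 and 0.08.

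The 20 tested huntingtin-associated proteins, Htt included, had medians of -0.39, 0.03 and 0.03. Kif5b, the kinesin heavy chain, was at 315, 311 and 265 CPM in controls and 380, 304 and 273 CPM in HTT-deleted cells. The 28 dynein, dynactin and kinesin genes had medians of 0.09, -0.01 and 0.01, with 15 above 0. Dync1h1, the dynein heavy chain, differed by -0.73, -0.02 and 0.18. The 26 autophagy genes had medians of -0.08, -0.05 and -0.03, and 7 of them were lower in all 3 pairs, as were 11.2% of all genes tested. Ulk1, the kinase that starts autophagy, was at 62.3, 67.7 and 63.0 CPM in controls and 46.6, 62.0 and 56.5 CPM in HTT-deleted cells, without overlap. Htt was the only member of these 3 lists called in pairs 2 and 3, where 0.556% of all genes tested were called higher and 0.114% lower.

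Mitochondrially encoded transcripts were uneven in both arms. The 11 tested genes had medians of -0.72, -0.10 and 0.33. Their median exon length was 957 bases, so this list of short transcripts ran against the length pattern of pair 1. mt-Nd5, a subunit of complex I, was chosen after its values were seen. It was at 2606, 2657 and 1567 CPM in controls and 371, 2563 and 2337 CPM in HTT-deleted cells. HTT-deleted replicate 1 was its lowest library and control replicate 3 the next, and they belong to different arms. The abundant mt-Co1 and mt-Cytb differed by -1.53, -0.12 and 0.28 and by -1.06, -0.15 and 0.41. mt-Co3 differed by -0.04, 0.36 and 0.37. The rare mt-Nd3 (0.41 to 1.065 CPM) was higher in each pair, by 0.89, 0.04 and 0.33.

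Of the 22 YAP and TEAD targets, which respond to cell spreading and tension, 19 had log2 fold changes below 0 and 8 were lower in all 3 pairs, with medians of -0.35, -0.16 and -0.05. Of all genes tested, 7281 of 14759 were below 0 and 11.2% were lower in all 3 pairs. The list's median exon length was 5412 bases, against 4242 bases over all genes tested, and the part of length in its pair 1 median was not tested. Ccn1, a matricellular protein and standard target, was at 604, 689 and 629 CPM in controls and 599, 471 and 610 CPM in HTT-deleted cells, so its difference lay in pair 2. Lats2, a kinase that restrains YAP, differed by -0.16, -0.34 and -0.14. Of the 27 inflammatory and NF-kB genes, 19 were below 0 and 9 were lower in all 3 pairs, with medians of 0.07, -0.38 and -0.05. Ptgs2, which encodes cyclooxygenase 2, was at 7.46, 9.95 and 16.1 CPM in controls and 4.56, 6.09 and 14.0 CPM in HTT-deleted cells. No member of the YAP or inflammatory list was called in pairs 2 and 3, where 0.556% of all genes tested were called higher and 0.114% lower. With library weights in limma voom, 2 inflammatory genes, among them Mmp13, and 0 YAP targets were called lower, against 0.102% of all genes tested.

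Matrix metalloproteinases were mixed. Mmp3, stromelysin, was at 210, 202 and 215 CPM in controls and 184, 95.4 and 174 CPM in HTT-deleted cells, with no overlap and the widest difference in pair 2. Mmp13, a collagenase, differed by -0.77, -1.18 and -0.20. Mmp9, a gelatinase, was on the other side in each pair, by 0.51, 1.31 and 0.72. Mmp14, the membrane-bound collagenase, differed by 0.18, -0.02 and 0.10. Of the 15 tested genes of this list, 6 were lower and 1 was higher in all 3 pairs, against 11.2% and 11.3% of all genes tested. Mmp3 and Mmp14 were chosen after their values were seen.

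**Figure D5:**
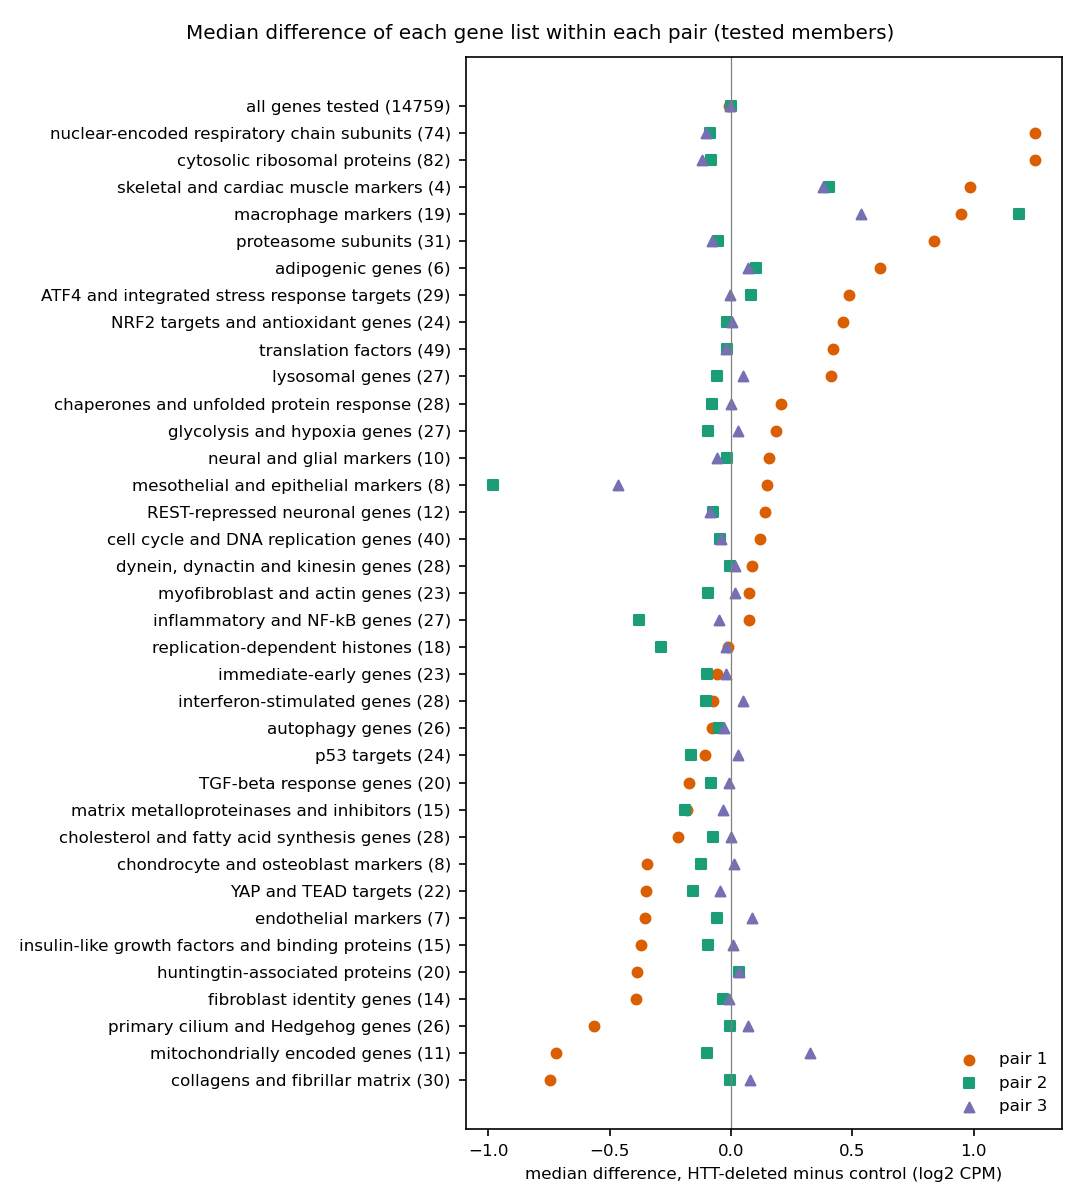
Median difference between HTT-deleted and control total RNA (log2 CPM, x axis) of each gene list with at least 3 tested members and of all genes tested (y axis, number of tested members in brackets), with one symbol per pair. Ribosomal protein and respiratory chain genes reach 1.25 in pair 1 but lie at -0.08 to -0.12 in the other pairs, whereas macrophage markers lie at 0.53 or above in every pair.

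The authors' deposited table gives their own comparison of total RNA over 16974 genes. At a false discovery rate under 0.05 the authors' deposited table lists 388 genes as higher (2.29%) and 456 as lower (2.69%). Cd5l has the log2 fold change 2.39 in the authors' deposited table, and Htt has -2.18. Among genes that also passed the filter on low counts here and had a mean of at least 1 CPM in a group, the 6 largest rises in the authors' deposited table were Cd5l, Pdzk1ip1, Ly86, Clec4a2, Serpinb1c and Tmem156. Fcna, the lectin ficolin A, and Bcl2a1b, a BCL2 family member, have 1.67 and 1.61 in the authors' deposited table and reached that mean, but did not pass the filter on low counts. Fcna had 14, 6 and 5 counts in controls and 54, 13 and 9 in HTT-deleted libraries. Ly86, the partner of the receptor Cd180, had 48, 4 and 19 counts in controls and 92, 25 and 28 in HTT-deleted libraries. Pdzk1ip1 had 9, 7 and 10 counts in controls and 40, 13 and 11 in HTT-deleted libraries, so HTT-deleted replicate 1 held most of its reads in that arm.

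Of the 6 largest falls in the authors' deposited table under the same limits, 2 had no count in HTT-deleted replicate 1 and a level like the controls in replicates 2 and 3. Large falls of rarer genes are also in the authors' deposited table, such as St6galnac2 (-9.81), Pax8 (-6.74) and Lrrtm2 (-6.03). Each had 0 counts in HTT-deleted replicate 1 and under 1 CPM as the mean of either group. St6galnac2 had 1, 11 and 7 counts in controls and 0, 1 and 2 in HTT-deleted libraries, so pair 1 hardly differed. Pax8 had 4, 2 and 22 against 0, 0 and 6, lower in every pair, and Lrrtm2 had 4, 5 and 24 against 0, 6 and 14. Pcdhac2, a clustered protocadherin, has the log2 fold change -2.25 in the authors' deposited table. It had 116, 115 and 149 counts in controls and 125 and 139 in HTT-deleted replicates 2 and 3, but 0 in replicate 1. The ribosome-associated RNA of pair 1 differed by 0.96 for Pcdhac2, on the other side. Gpr63, a G-protein-coupled receptor, has -2.65 in the authors' deposited table, with 16, 22 and 33 counts in controls and 0, 30 and 28 in HTT-deleted libraries. The other falls were Hist1h2bf, Hist1h2bm, Msantd1 and Htt, each described above by its level in every library. Of the 82 ribosomal protein genes, 23 are listed as higher in the authors' deposited table and 0 as lower, although their medians in pairs 2 and 3 were below 0.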

How the data were processed

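Total RNA of 3 control and 3 HTT-deleted MEF cultures was analysed. Reads were aligned with STAR 2.7.2b and counted with HTSeq 0.11.1 on GRCm38, per the submitters' processing notes, and the authors deposited raw counts per Ensembl gene. The annotation release and the strand setting used in counting are unstated in the sources used here. The deposited table of the authors' own comparison gives each gene a log2 fold change, a log2 CPM, a score, a p-value and its false discovery rate. Its model is known only from the table's name and headers, which point to RUVSeq with 2 factors and a likelihood ratio test in edgeR.

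Summary entries that name no gene (5 per file) were dropped, and symbols, exon lengths and positions came from GENCODE M21 (55394 of 55487 genes matched). Counts were scaled by TMM, filtered with filterByExpr and tested with edgeR 4.0.16 (quasi-likelihood, robust, R 4.3.3), with the replicate number as a block. Adjustment was Benjamini-Hochberg over all genes tested, with a threshold of 0.05. Exon length is the union of a gene's annotated exons. Pair differences are log2 CPM with a prior count of 2. The pairing was taken from the replicate numbers. Deviations of same-numbered libraries from their group means correlated at 0.222, 0.575 and 0.445 across genes, against -0.437 to 0.00907 for other combinations. These correlations are not independent of each other, because deviations from a group mean cancel within each arm. Intervals and floors of 3 counts cover counting error only.

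Named genes were Htt and, since no gene was called, the 10 with the smallest p in each direction among those of at least 1 CPM, with an assigned symbol and the same direction in all 3 pairs. The 6 largest rises and falls of the deposited table among tested genes of at least 1 CPM were added, and, for lists, members with the smallest p or the highest level. Members and lists were chosen with earlier results of these data known. The fit was also run on simulated counts with known fold changes. These held no library with a length dependence like that of HTT-deleted replicate 1, so they do not show how the fit behaves with such a library. Alternatives were other scalings, filters and tools (DESeq2 1.42.0, limma 3.58.1), a length offset, no block, and leaving out pairs or libraries. No list was tested as a set.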

Additional observations from a re-analysis of the deposited data

How the results depend on the processing

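The number of called genes depended on the test and on pair 1. It was 0 of 14759 in the fit described and stayed at 0 with no replicate block (53 genes at an unadjusted p under 0.05, against 367 with the pairs), with RLE or upper-quartile scaling, with either filter, with limma voom, with the legacy form of the quasi-likelihood test and with the length offset. It was 14 with DESeq2, 27 with the likelihood ratio test and 163 with library weights. Leaving out replicate 1, 2 or 3 from both arms, with the block kept, gave 100, 4 and 3, and leaving out a single library without the block gave 0 to 1, the 1 without control replicate 3. The cause was not tested.

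The Htt log2 fold change lay between -2.39 and -1.98 under all alternatives run. It passed the threshold with DESeq2 (-2.17, adjusted p 6.2e-13), the likelihood ratio test (-2.17, adjusted p 3.7e-15) and library weights (-2.31, adjusted p 6.0e-06). Leaving out replicate 1, 2 or 3 from both arms gave -2.35, -2.22 and -1.98, each past the threshold, and leaving out a single library without the block gave -2.39 to -2.06, none past it. Gpr63 changed sign with no replicate block (0.19), with library weights (0.40), without pair 1 (0.43), and without HTT-deleted replicate 1 (0.77), control replicate 2 (0.30) or control replicate 3 (0.44). Pcdhac2 changed sign with library weights (0.32), without pair 1 (0.36), and without HTT-deleted replicate 1 (0.53), control replicate 2 (0.043) or control replicate 3 (0.012). Both were positive without HTT-deleted replicate 1. No other gene named by the smallest p or from the deposited table changed sign. Genes named from lists or from the calls of pairs 2 and 3 were not followed through every alternative, and without pair 1 several of them changed sign, among them Tlr8 (-0.15 to 1.15), Timp1 (0.12 to -0.37), Rplp1 (0.42 to -0.10), Smo (-0.53 to 0.02) and Col1a1 (-0.10 to 0.04). The macrophage median ran from 0.16 to 1.56 over the single-library omissions and from 0.69 to 0.94 when whole pairs were left out. With the filter at 5 CPM, no mesothelial and epithelial marker was left.

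With 3 pairs, low counts limit Cd5l, Esm1, Msantd1 and both H2B genes, and calls from pairs 2 and 3 rest on 2 pairs of libraries.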

Other observations

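Several lists outside the comparisons above held members that differed in the same direction in every pair. For comparison, 11.3% of all genes tested were higher and 11.2% lower in all 3 pairs. Among 27 lysosomal genes, 1 was lower and 6 were higher in all 3 pairs. The 6 included Gusb, beta-glucuronidase, with differences of 0.73, 0.30 and 0.14, and Ctsb, cathepsin B, with 0.43, 0.26 and 0.25. The list's medians were 0.41, -0.06 and 0.05. Among 29 targets of ATF4 and the integrated stress response, 6 were higher and 1 was lower in all 3 pairs. The medians were 0.49, 0.08 and -0.00. Atf3, a stress-induced transcription factor, was at 10.8, 3.87 and 6.30 CPM in controls and 18.4, 8.21 and 7.80 CPM in HTT-deleted cells. Mthfd2, a mitochondrial folate enzyme, differed by 0.72, 0.41 and 0.10.

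Sesn1, a p53 target that restrains mTORC1, was at 37.4, 30.9 and 38.3 CPM in controls and 54.5, 39.1 and 43.3 CPM in HTT-deleted cells, without overlap. The 24 p53 targets as a list had medians of -0.11, -0.17 and 0.03. Irs2, an adaptor of the insulin receptor, was at 56.9, 63.0 and 54.5 CPM in controls and 30.0, 49.7 and 50.8 CPM in HTT-deleted cells, also without overlap. Eln, elastin, was higher in each pair, by 0.34, 0.74 and 0.25, while the collagens Col1a1 and Col1a2 differed by -0.40, 0.06 and 0.03 and by -0.55, 0.03 and 0.02. The 40 cell cycle and DNA replication genes had medians of 0.12, -0.05 and -0.04, the 28 cholesterol and fatty acid synthesis genes -0.22, -0.08 and 0.00, and the 28 interferon-stimulated genes -0.08, -0.10 and 0.05. None of the genes in these 2 paragraphs was called with all 3 pairs or in pairs 2 and 3.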
